A study of Homo sapiens with 13 samples.

Results

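The 8q24 interval around MYC was described in a pair of long-established cell lines of human SCLC (small cell lung cancer), H82 (SCLC-N, the subtype marked by NEUROD1) and H146, which is of another neuroendocrine subtype. The interval is 126000001 to 130500000 of chromosome 8 on hg38, 4.5 Mb long, and its members are all accessible regions that overlap it in either line. There were 621 members of 381020 regions in all, 233 of 206927 in H82 and 388 of 174093 in H146, and 0 regions were cut by the ends of the interval. The interval was chosen by its regions, because wide H82 regions lie around MYC, so that the presence of those regions is a description and not a finding.

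ATAC-seq, in which the transposase Tn5 cuts and tags open DNA, was performed on untreated cells and on cells kept for 14 days with 100 nM FHD-286, which blocks SMARCA4 and SMARCA2, the motor subunits of the SWI/SNF chromatin remodelling complexes. H146 had 4 untreated and 3 treated samples, and H82 had 3 untreated and 3 treated samples. The deposited files hold 1 list of regions per line, merged over all its untreated and treated samples, with a start and an end for each region and no height, read count or sample of origin. Treated and untreated cells therefore cannot be told apart, no value has a spread between samples, no test between the lines was possible, and the depth of each sample is unknown. Each subtype is represented by 1 line, and the line cannot be told apart from the number of samples, their depth or their DNA copies.

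MYC encodes a transcription factor that drives cell growth and division, and in many tumours it is controlled by enhancers that lie far from it on either side, in a neighbourhood with few protein-coding genes and many long non-coding RNA genes. The nearest large neighbour, PVT1, is a long non-coding RNA gene that is often gained in copy number together with MYC and whose promoter can compete with the MYC promoter for enhancers. H82 is a line in which amplification of MYC has been described, but the lists hold no read depth, so DNA copy number was not measured and cannot be told apart from accessibility.

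The labelled cell types were checked by regions that came within 1 kb of a gene's transcription start site (TSS). Of 4 neuroendocrine genes, NEUROD1, INSM1, SYP and CHGA, H82 had such a region at 4 and H146 at 3, all but NEUROD1. POU2F3 and YAP1, markers of other SCLC subtypes, had a TSS region in both lines. Of 4 genes of other lung and blood cells, SFTPC and COL1A1 had a TSS region in both lines, SCGB1A1 in H146, and PTPRC in neither, so a TSS region alone does not mark a cell type in these lists.

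The lists of the lines were not independent at the level of single bases. Over all chromosomes 19180 regions had the same start and the same end in both lists. Starts coincided at 35829 positions and ends at 35862, but when the H82 list was moved by 1 bp only 178 starts and 365 ends coincided. In the interval 52 starts and 54 ends coincided, against 0 and 0 after a shift of 1 bp, and 32 regions, 10.1% of the H146 and 13.9% of the H82 regions outside the wide H82 regions, were identical in the lists. The widest of these, within PVT1 from 127848628 to 127850156, is 1529 bp long in both. No H146 region inside the wide H82 regions shared an edge with H82. The wide regions have almost no edges to share, so nothing is read from this absence. Which samples gave these regions is not recorded in the lists, and whether reads or calls entered both lists was not tested. Shares of regions in common are therefore given with and without regions that have a start or an end on the same base in the other list.

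H82 carried 2 regions of at least 10 kb in the interval, called joined blocks here, and H146 carried 0. The block farther from MYC ran from 127025108 to 127552351 and measured 527244 bp, which made it the widest region of the H82 list. The block over MYC ran from 127552866 to 127834902 and measured 282037 bp, which made it the third widest. In the whole H82 list 286 regions (0.138%) were at least 10 kb wide, and in H146 136 were; since width chose the interval, nothing is read from this comparison. Both blocks stood far above the limit of 10 kb. The next widest H82 region of the interval, over the TSS of LRATD2, was 3737 bp. There was thus no H82 region of intermediate size, from 5 to 10 kb, in the interval. The widest H146 region of the interval was 6688 bp, from 127733494 to 127740181, over the TSSs of MYC and CASC11, and it ranked 415 by width in the H146 list.

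**Figure D1:**
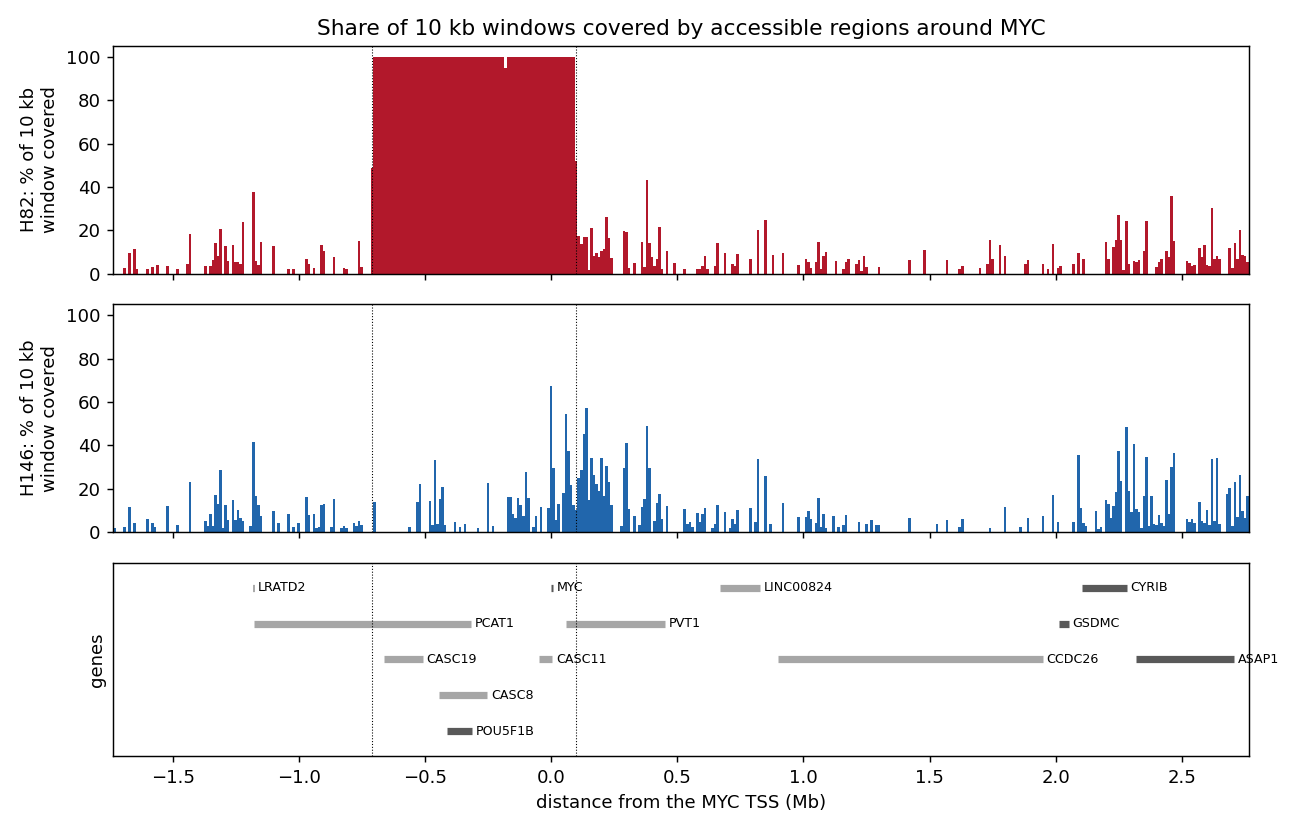
Share of each 10 kb window covered by accessible regions in H82 (upper panel) and H146 (middle panel), with the gene bodies drawn to scale (lower panel, protein-coding genes dark, non-coding genes light), against distance from the MYC TSS in Mb. Dotted lines mark the edges of the joined span, inside which H82 windows are covered to between 94.9% and 100%. The median H146 window is covered to 0% inside the span and 2% outside it.

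The blocks together formed a joined span from 127025108 to 127834902, 809795 bp long, with 710.3 kb on the far side of the MYC TSS and 99.5 kb on the PVT1 side. Blocks made up 809 kb, 84.1% of the 962 kb that H82 covered in the interval, and they raised the covered share of the interval to 21.4% in H82 against 6.32% in H146. Outside the span the order was the opposite, with 4.15% covered in H82 and 6.07% in H146. Of 80 windows of 10 kb inside the span, the lowest was covered to 94.9% in H82, while 41 held no H146 region. Of 368 windows outside it, the highest was covered to 43.1% in H82 and to 57.0% in H146. Of these, 199 held no H82 region and 179 no H146 region, so windows empty in H146 were common on both sides of the edges. The blocks define the span, so that H82 windows inside it are full by construction.

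The same stretch was read by windows, as a description that the width of the blocks fixes. Consecutive 10 kb windows covered to 50% or more, 5 or more in a row and with at most 1 lower window bridged, gave a single H82 segment in the interval, from 127025108 to 127836966 and 812 kb long. It was the longest of 113 such H82 segments in the genome, and it was made of 3 regions where the next longest, 532 kb on chromosome 14 from 62299507 to 62831322, was made of 73 regions of at most 56.3 kb. The third, on chromosome 8 from 96590850 to 97097010, was 1 region of 506 kb. In H146 the rule gave 56 segments in the genome and none in the interval.

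**Figure D2:**
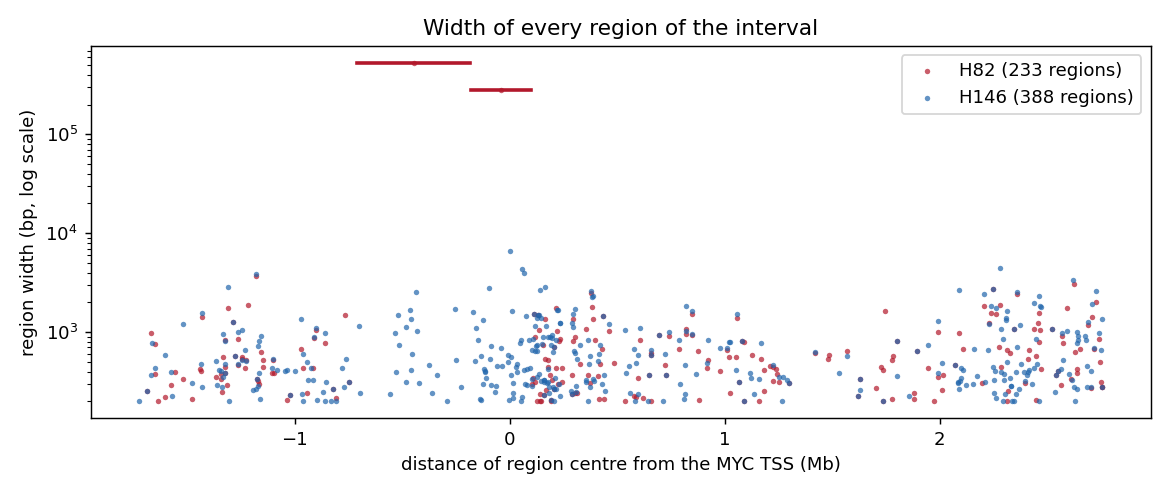
Width in bp (log scale) of each of the 233 H82 and 388 H146 regions of the interval against the distance of its centre from the MYC TSS in Mb, with the extent of the joined blocks drawn as horizontal lines. The blocks, at 527244 and 282037 bp, stand far above every other region, of which the widest is the 6688 bp H146 region at MYC.

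The blocks were separated by a gap of 514 bp, from 127552352 to 127552865, just above the 500 bp within which the authors merged regions. The gap lay between genes, 70.5 kb past CASC8 and 25.9 kb before the non-coding gene ENSG00000286266, and 183 kb from the MYC TSS. It fell in a stretch of 57.3 kb, from 127507702 to 127565018, that held no H146 region. All of its 484 words of 31 bases occurred only once in the reference, and its GC content was 35.8%, against 39.7% in the 1 kb before it and 45.6% in the 1 kb after it. The gap thus held no word of that length that the reference repeats.

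The far edge of the span, at 127025108, lay in intron 6 of PCAT1 (7 exons in the canonical transcript), a long non-coding RNA gene named for prostate cancer, 469 kb past its TSS and 47.6 kb before CASC19. Cover in H82 changed there from 100% over the 100 kb inside to 2.02% over the 100 kb outside, and the nearest H82 region outwards was 312 bp wide and 39.2 kb away. H146 was sparse on both sides of this edge, with 1.397% covered inside and 1.76% outside.

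The other edge, at 127834902, lay in intron 2 of PVT1 (11 exons in the canonical transcript), 40.4 kb past the PVT1 TSS. Cover in H82 fell from 100% to 11.9% over the 100 kb outside, where 22 H82 regions lay, the nearest 299 bp wide and 1.77 kb away. Over 100 kb H146 was dense on both sides of it, with 24.4% covered by 23 regions inside and 30.03% by 37 regions outside. The 10 kb just inside the edge were covered to only 4.33% in H146. The H82 block thus ended within a stretch that was rich in separate regions in H146, while its far edge lay in one that was poor in them. The sequence at both edges was more repetitive than at the gap: in the 1 kb on either side of them between 49.4% and 72.9% of words of 31 bases occurred only once in the reference.

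**Figure D3:**
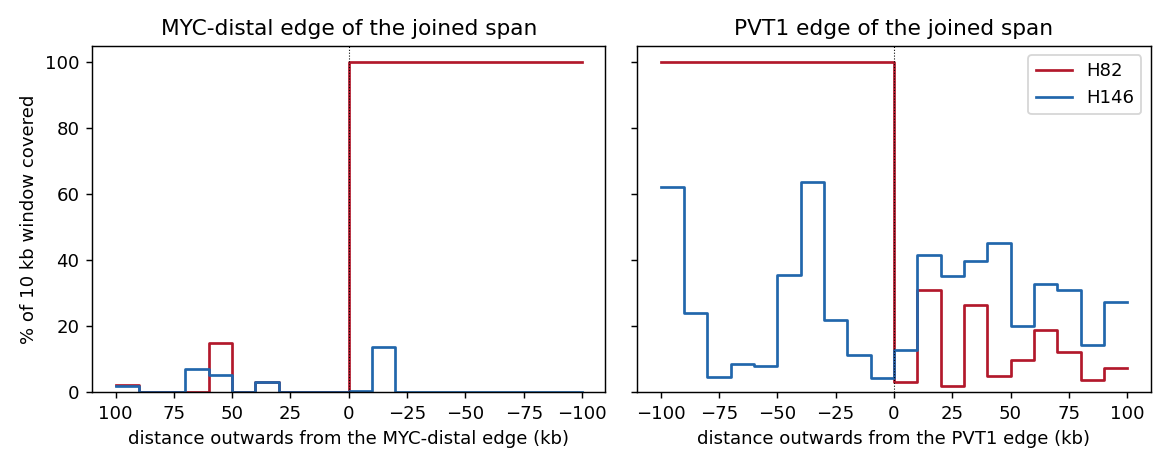
Share of each 10 kb window covered in H82 and H146 against distance outwards in kb from the edge of the joined span in PCAT1 (left panel, outside drawn to the left) and from the edge in PVT1 (right panel). H82 drops from 100% within 1 window at both edges, and H146 is low on both sides of the PCAT1 edge. At the PVT1 edge H146 windows range from 4.33%, next to the edge, to 63.6% inside and from 12.9% to 45.1% outside.

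Inside the joined span H146 had 71 separate regions with a median width of 460 bp, 87.7 per Mb, against 317 regions and 85.9 per Mb in the rest of the interval. Their density inside the span was thus close to that outside, and their cover was 7.43% inside and 6.07% outside. Overlap with H82 is fixed here by the choice of the blocks. The regions were spread unevenly between the blocks. The block over MYC held 48 of them, 170.2 per Mb, which covered 14.8% of it, and the far block held 23, 43.6 per Mb, which covered 3.50%.

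Of the 17 H146 regions of at least 1 kb in the span, 9 lay in the block over MYC. The one over the 5′ end of MYC and CASC11, a non-coding gene read in the opposite direction, measured 6688 bp and was followed by regions of 365 and 564 bp in the rest of MYC. The PVT1 TSS lay in a region of 4326 bp, from 127792602 to 127796927, and a region of 3925 bp followed it, from 127799081 to 127803005. Upstream of MYC the widest was 2777 bp, from 127637141 to 127639917, between genes and 96.9 kb from the MYC TSS. In the far block the widest was 2559 bp, from 127298487 to 127301045, in PCAT1 and CASC8. The promoters of MYC and PVT1 thus carried the widest H146 regions of the span.

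By steps of 50 kb back from the PVT1 edge, H146 regions covered 27.3% of the step with the PVT1 TSS and 21.4% of the step that begins at MYC, and between 0% and 11.0% of each full step farther out. The longest stretch of the span with no H146 region was 139.7 kb, from 127038982 to 127178705, and holds PRNCR1 and PCAT2, non-coding genes named for prostate cancer. The next were 57.3, 46.8, 45.4 and 34.9 kb long. In H82 each of these stretches was covered wholly apart from the gap between the blocks.

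In the rest of the interval H82 had fewer regions than H146. The ratio of H82 to H146 regions was 0.729 there (231 against 317; 95% counting interval 0.612 to 0.866), against 0.931 on chromosome 8 and 1.19 over all chromosomes. It was 0.764 before the span (55 against 72; 0.528 to 1.10) and 0.718 after it (176 against 245; 0.588 to 0.875). By bins of 500 kb, leaving out the 2 bins that hold the span, H146 had more regions in 5 of 7 bins. The exceptions were the bins that start 128.5 Mb and 129 Mb along chromosome 8, most of whose length is CCDC26, with 30 and 28 and with 12 and 11 regions in H82 and H146. These intervals, and those of the shares given next, cover counting error only, and neighbouring regions are not independent.

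**Figure D4:**
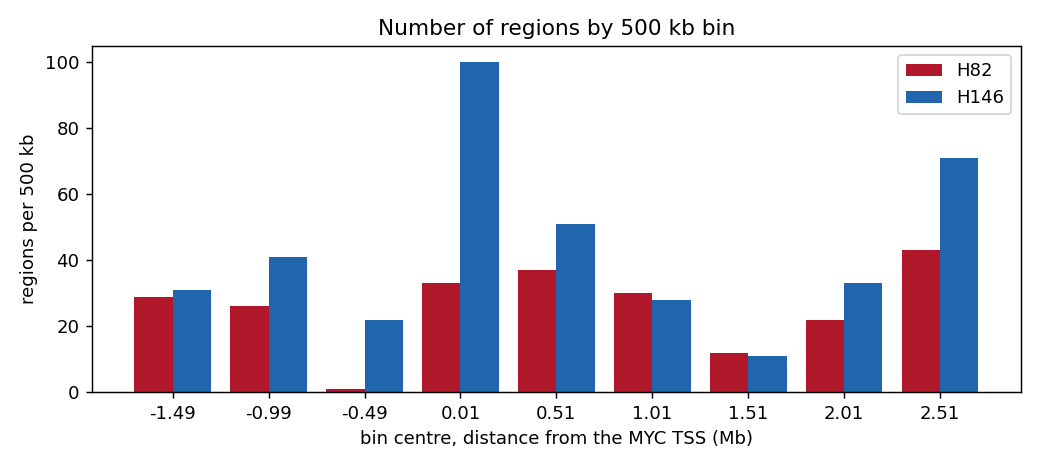
Number of accessible regions of H82 and H146 in each of 9 bins of 500 kb, placed by the distance of the bin centre from the MYC TSS in Mb. H82 has 1 region in the bin that lies almost wholly in the joined span, where H146 has 22, and that difference is fixed by the blocks; of the 7 bins without the span, H146 has more regions in 5.

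Neighbouring H82 regions outside the span lay a median of 8.36 kb apart, and 7.42% of these gaps were under 1 kb, against 5.41 kb and 12.1% in the whole H82 list. In H146 the median gap outside the span was 4.22 kb, shorter than the 6.44 kb of its whole list, and inside the span it was 3.14 kb. By regions per Mb H82 had 62.6 outside the span, between its 60.3 on chromosome 8 and 67.0 over all chromosomes, and H146 had 85.9, above its 64.8 and 56.4. By regions per Mb the higher number was thus that of H146, while H82 was near its own level elsewhere. By gaps and cover, however, H82 was sparser than its own level. It covered 4.15% outside the span, against 5.38% of chromosome 8 and 5.41% of all chromosomes, which include the wide regions. H146 covered 6.07%, against 5.00% and 4.49%.

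Of the 231 H82 regions outside the span, 178 (77.1%; Wilson 95% interval 71.2 to 82.01) overlapped an H146 region, against 59.3% of all H82 regions and 69.6% on chromosome 8. Of the 317 H146 regions, 174 (54.9%; 49.4 to 60.3) overlapped an H82 region, against 70.5% of all H146 regions and 64.5% on chromosome 8. The order of the lines was thus that of chromosome 8 as a whole and the opposite of that over all chromosomes. Without regions that share a start or an end with the other list, all of which are shared by construction, the shares were 66.2% of 157 H82 regions and 41.2% of 243 H146 regions, against 54.8% and 49.0% on chromosome 8 and 45.5% and 57.9% over all chromosomes.

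Outside the span, 148 of 231 H82 regions lay wholly inside an H146 region, 32 of them with the same edges, and 53 overlapped none. Where 1 region of each line overlapped, 170 pairs in all, H82 had a median width of 531 bp, against 741.5 bp in H146. The H146 region was wider in 117 pairs, the H82 region in 21, and 32 had equal widths. H146 was wider in 68.8% of pairs here, 66.9% on chromosome 8 and 57.1% over all chromosomes. Among the 98 pairs in which both edges differed, the medians were 570.5 and 836 bp and H146 was wider in 80 (81.6%), against 80.3% on chromosome 8 and 63.9% over all chromosomes. The share in the interval was therefore close to that of its chromosome.

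Genes were read next, by a region within 1 kb of the TSS, taken as the gene's 5′ end. Of 65 genes with a TSS in the interval, 20 had such a region in both lines, 8 in H82 alone, 2 in H146 alone and 35 in neither, where of all 62663 annotated genes 50.1% had one in H82 and 46.7% in H146. All 14 genes with a TSS in the span had one in H82, as the block fixes, and 7 of them had one in H146. Outside the span 13 of 51 genes had one in both lines, 1 in H82 alone and 2 in H146 alone.

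The interval has 6 protein-coding genes, of which 5 had a TSS region in H82 and 4 in H146, where over 20033 protein-coding genes the shares were 80.5% and 77.2%. LRATD2, MYC, CYRIB, which binds and restrains the GTPase RAC1, and ASAP1, which inactivates ARF GTPases, had a TSS region in both. GSDMC, a pore-forming gasdermin, had none in either, and the nearest region was 21064 bp away in both. By the TSSs of its 4 transcripts, however, 2 had a region in H82 and 0 in H146, so that all 6 protein-coding genes had one in H82. POU5F1B, a retrotransposed copy of the pluripotency gene POU5F1, had one in H82, through the far block, and none in H146, whose nearest region was 9938 bp away. Reads in a copied gene may be placed on either copy, so values at POU5F1B are uncertain.

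MYC (127735434 to 127742951, plus strand) lay wholly in the H82 block, and H146 covered 68.7% of it with 3 regions. At LRATD2 (126552443 to 126558478, minus strand) the TSS region began at 126555101 in both lists and ended 126558837 in H82 and 126558952 in H146, 3737 and 3852 bp. At CYRIB (129839593 to 130017504, minus strand) the TSS region measured 1896 bp in H82, against 4460 bp in H146. At ASAP1 (130052104 to 130443674, minus strand) they were 1426 and 1913 bp. At all 3 of these genes outside the span H146 had the wider promoter region. It was also the wider in 66.9% of overlapping pairs on chromosome 8, so nothing particular to promoters is read from this. The gene bodies followed, with 6.98% of CYRIB covered in H82 and 10.2% in H146, 6.69% and 10.0% of ASAP1, and 1.63% and 1.27% of GSDMC, the 1 of these 3 that went the other way.

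The long non-coding genes CASC19, PRNCR1, CASC8, CASC21, CCAT1, CCAT2, PCAT2 and CASC11 lay wholly in the blocks in H82. In H146 cover was 0% of PRNCR1 and of CCAT2, a transcript of the colorectal cancer risk region, 2.47% of CASC19, 3.59% of CASC8, 6.83% of CASC21 and 14.8% of CCAT1, a transcript found raised in colon cancer. PCAT1 was covered to 47.2% in H82 and 4.06% in H146, and 45.7% of its body lay in the span. CASC11 was covered to 15.1% in H146. In H146 the TSSs of CASC8 and CASC11 had a region, of 1730 and 6688 bp, and the 5′ ends of CASC19, PRNCR1 and CCAT2 had none within 1 kb, although 34 of the 72 transcripts of CASC19 had one at their own TSS.

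**Figure D5:**
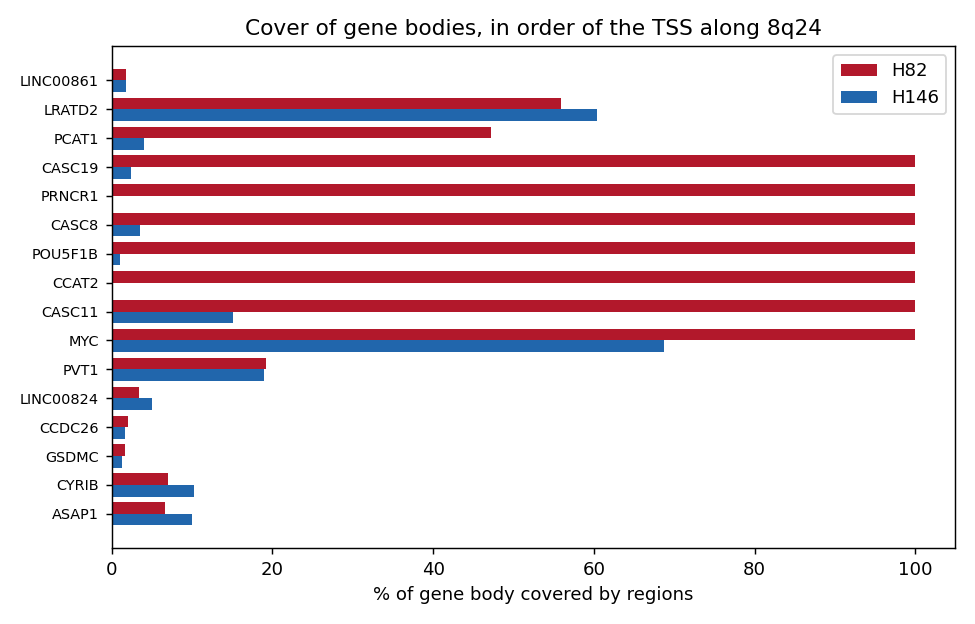
Percent of each gene body covered by accessible regions in H82 and H146, for the protein-coding and named non-coding genes of the interval in the order of their TSSs. Genes wholly inside the joined span are at 100% in H82 and between 0% and 68.7% in H146, PVT1 is at 19.2% and 19.0%, and CCDC26 at 2.01% and 1.62%.

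PVT1 (127794526 to 128187101, plus strand, 393 kb) was covered to 19.2% in H82 and 19.0% in H146, but the bases lay in different places. Over the 40.4 kb from its TSS to the edge of the block, H82 covered 100% with the block and H146 26.0% with 9 regions. Over the 352 kb past the edge, H82 had 53 regions that covered 9.97% and H146 82 regions that covered 18.2%. Of these, 49 H82 and 47 H146 regions were shared, 92.5% and 57.3%, against 59.3% and 70.5% over all chromosomes. Without those that share an edge with the other list, 86.2% of 29 and 39.7% of 58 were shared, against 45.5% and 57.9%. The close totals thus came from a block at the promoter in H82 and from more and wider regions along the gene body in H146.

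Past the edge, 12 H82 and 21 H146 regions of PVT1 were at least 1 kb wide, the widest 2507 and 2873 bp. In both lines a group of such regions had centres between 379.6 and 388 kb past the MYC TSS, inside the body of PVT1. There H82 had regions of 2507, 1806 and 1347 bp and H146 had regions of 2635, 2262 and 2298 bp. Nearer the block H146 had regions of 1376 and 1234 bp, from 127863848 to 127865223 and from 127970906 to 127972139, that no H82 region overlapped. In the 45 pairs past the edge in which 1 region of each line overlapped, H82 had a median width of 440 bp, against 841 bp in H146, a wider gap than the 531 and 741.5 bp of all such pairs outside the span.

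The microRNA genes inside PVT1 were read by the same rule. MIR1204, the one nearest the PVT1 promoter, lay in the block in H82 and in the 4326 bp region in H146. MIR1205 had a region of 300 bp within 1 kb in H82 and of 1683 bp in H146. MIR1207 had regions of 245 and 533 bp, and only that of H146 covered the gene itself. MIR1206 and MIR1208 had no region within 1 kb in either line, as had MIR3686 in CCDC26 and MIR5194 in CYRIB.

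CCDC26 (128634199 to 129683770, minus strand, 1049.6 kb) is a long non-coding RNA gene that hosts blood cell enhancers of MYC. It held 43 H82 regions that covered 2.01% and 34 H146 regions that covered 1.62%. Of these, 23 of each were shared, 53.5% and 67.6%, against 59.3% and 70.5% over all chromosomes. Without those that share an edge with the other list, 28.6% of 28 and 42.1% of 19 were shared, against 45.5% and 57.9%. The CCDC26 TSS had no region within 1 kb in either line, and the nearest lay 1410 bp away in H82 and 1136 bp away in H146. The widest H82 region in it, 1619 bp from 129479078 to 129480696, overlapped no H146 region, while the next, 1393 bp from 128793981 to 128795373, lay in the widest H146 region, of 1516 bp. Among the other non-coding genes past PVT1, LINC00824 was covered to 3.38% in H82 and 5.05% in H146, and LINC00976 to 5.79% and 3.58%. LINC00861, at the other end of the interval, was covered to 1.78% and 1.82%.

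Distal enhancers of MYC have been described in other cell types at approximate distances from its TSS, and windows of 50 kb to either side of these points were read. These points are distances and not mapped elements, so a window without regions says nothing of an enhancer. At 0.34 Mb before the TSS, where a colorectal cancer enhancer has been described, H82 was covered to 100% by the far block and H146 to 1.16%, by 4 regions of at most 468 bp. Around the PVT1 promoter cover was 90.7% in H82, where the window reaches past the block, and 19.4% in H146 with 23 regions.

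Past the span the lines were close to each other. At 0.45 Mb after the TSS, near a lung adenocarcinoma enhancer, 8 regions of each line covered 4.90% in H82 and 5.46% in H146, and 7 of each were shared, or 4 of 5 in each without regions that share an edge. At 0.8 Mb, near an endometrial cancer enhancer, 5 H82 regions covered 4.46% and 9 H146 regions 6.78%. At 1.4 Mb, near a T cell enhancer, each line had 1 region, with 0.615% and 0.637% covered. At 1.9 Mb, near the blood enhancer cluster, 4 H82 regions covered 1.53% and 3 H146 regions 1.61%. H146 thus covered more at all 4 points past the span by the windows above. With windows of 0.1 Mb to either side it covered more at 3 of the 4, and with 0.02 Mb at 2. The lines were close at 1.4 and 1.9 Mb, so no direction is read from these counts.

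GC content was read from the reference for the regions and for the interval around them. It was 41.3% in the H82 blocks and 40.4% in the rest of the interval, but 48.6% in the other H82 regions, 46.6% in the H146 regions of the span and 48.4% in the H146 regions outside it. Over the whole lists it was 52.2% in H82 and 51.9% in H146. The value of the blocks was thus nearer to that of the rest of the interval than to those of the other regions. Whether their width gives this value was not tested.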

How the data were processed

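The deposited data are region positions on hg38, a start and an end in bp for each region and no score. Per the labels and the study's methods, the authors trimmed reads with Trim Galore 0.4.4, aligned them to hg38 with Bowtie2 2.3.4, removed duplicates with Picard, called regions in each sample with MACS2, removed blacklisted regions and merged those within 500 bp over all samples of a line. For their own test of FHD-286 they counted reads with featureCounts 1.6.0, and those counts were not used here. The 4 H146 controls were sequenced in separate batches, 1 of them with the treated cells, and merging removes this distinction. The number of samples and their depth can affect the length of a list, and width after merging is not that of a single site. Whether ends were shifted for the Tn5 cut is not stated in the sources used here. There were 0 columns of per-sample values left aside.

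The members and gene lists were chosen with earlier results of these data known. Starts were turned to 1-based positions, and chromosomes 1 to 22, X and Y were used. Genes came from GENCODE 44 and, for 4 of 14 named non-coding genes, from RefSeq (GRCh38.p14). Every protein-coding gene with a TSS in the interval was named, with listed non-coding and PVT1 microRNA genes. A region belonged to the span by its centre, was shared on overlap of at least 1 bp (bedtools 2.31.1 differed for 0 regions), and cover was the share of bases. Intervals of 95% were Wilson intervals for shares and exact binomial ones for ratios. Python 3.11.15 and numpy 2.4.6 were used, and functions were tested on simulated data. The soft-masked share was not computed, because the reference sequence is in capitals throughout. 1 marker gene of the list is not reported here. No sequence is printed.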

Additional observations from a re-analysis of the deposited data

How the results depend on the processing

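Of 41 values recomputed under an alternative, 26 changed by less than their limit and 15 moved. Reversal of direction was not scored. Limits of 5 and 20 kb for the blocks could not change them, because no H82 region of the interval measured between 3737 and 282037 bp. These settings count among the 26. With regions of at least 500 bp only, members fell to 111 in H82 and 176 in H146, cover of the interval to 20.5% and 4.799%, and H146 regions to 40.8 per Mb inside and 38.8 per Mb outside the span. Overlap of at least 50% of the region lowered the shared H146 regions to 43.2%. Leaving out regions that share an edge with the other list, chosen after seeing the data, gave 66.2% in H82 and 41.2% in H146. Joining regions again within 2 kb gave 1 block, to 127836966. Requiring 80% cover per window left 1 gap in the dense segment in place of 2. A reach of 5 kb gave 38 genes with an H146 region at the TSS in place of 22 and 42 with an H82 region in place of 28. Enhancer windows of 0.02 Mb to either side gave 2 of 4 points with more H146 cover, and those of 0.1 Mb gave 3. In the central 200 bp GC content was 48.9% in H82 regions outside the blocks and 49.0% in H146 regions outside the span. The length of the segment ran from 809.8 to 825 kb over the window rules.

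No paired analysis was possible because each line has a single merged list, and for the same reason leaving out each replicate could not be run. Depth, the effect of FHD-286 and DNA copies were not measured.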

Other observations

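Sequence words for factors of these lines were counted on both strands in the reference, as a description. CAGATG, an E-box form bound by NEUROD1, occurred 0.790 times per kb in the H82 blocks and 0.740 in the rest of the interval, against 1.13 in the other H82 regions of the interval and 0.932 in the whole H82 list. In H146 it occurred 0.897 times per kb in the regions of the span and 0.941 outside it, against 0.807 in the whole list. TAATCC, the word of OTX2, occurred 0.734 times per kb in the blocks and 0.718 in the rest of the interval. It occurred 0.712 times per kb in the other H82 regions, against 0.680 in the whole H82 list. In the H146 regions inside and outside the span it occurred 0.581 and 0.553 times per kb, against 0.416 in the whole list. For this word the blocks and the other H82 regions were thus both close to the rest of the interval. TGTTTAC, the word of FOXA factors, occurred 0.136 times per kb in the blocks, 0.229 in the other H82 regions and 0.249 and 0.210 in the H146 regions. In the blocks CAGATG and TGTTTAC were nearer to their level in the rest of the interval, 0.740 and 0.159 per kb, than to that in the other H82 regions.

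Of the 113 dense H82 segments, 21 were covered to under 10% in H146, of which 16 lay on chromosome 14 and 2 on chromosome 8. H146 covered 4.49% of all chromosomes and 5.00% of chromosome 8, so this limit does not mark segments that H146 lacks. The segment at MYC was covered to 7.45% in H146, above both. The other on chromosome 8, from 96590850 to 97097010, had 0% H82 cover in the 10 kb beyond both edges, as had segments of chromosome 14 from 85973853 to 86212842 and from 46263567 to 46318887 and 1 of chromosome 9 from 137422475 to 137467394. The identical regions of the lists were not particular to the interval: they made up 9.27% of all H82 and 11.0% of all H146 regions, and 12.4% and 11.5% on chromosome 8.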
